A study of Mus musculus with 8 samples.

Results

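A set of 6 genes of lipid carriage, uptake, desaturation and sensing was followed in mouse retina in which the cholesterol exporter ABCA1 was labelled as knocked out. These are Apoe and Clu, whose products accept lipid outside the cell, the receptor gene Lrp1, the desaturase gene Scd2, the sterol sensor gene Insig1 and the fatty acid carrier gene Fabp5. The genes were chosen by symbol from the single table of expression differences analysed here, and all 6 of 6 were found among its 1802 genes. Papain was used to dissociate the retinas, and droplet capture of single cells was followed by sequencing of transcripts from the 3′ end. The labels give 3 libraries of control genotype (WT) and 5 libraries of genotype ABCA1KO (KO). The sources used here give no strain, age, sex, treatment or allele, nor the cells in which the gene was deleted or the number of animals per library. The series title names astrocytes and optic neuropathy, and the comparison asks how gene expression in the retina differs between these genotypes.

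ABCA1 moves cholesterol and phospholipid across the plasma membrane onto lipid-poor apolipoproteins, which forms particles that neighbouring cells take up through receptors of the LDL receptor family. In the retina, Müller glia and astrocytes are known as the main makers of apolipoprotein E. Inside the cell, sterol level sets the activity of the SREBP transcription factors, which drive genes of cholesterol and fatty acid synthesis and are held in the endoplasmic reticulum by INSIG proteins.

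The values come from the authors' deposited table, which holds 1 comparison of all KO cells with all WT cells and no value per library. Its measure of size is a difference of natural-log mean values, KO minus WT, called the log difference below. The values appear to be batch-integrated, so a log difference should not be read as a fold change, nor a value above 0 as a detected transcript. The p-values are the authors', adjusted over 2000 features, and "called" means an adjusted p under 0.05. With no value per library, the spread between libraries is unknown, as are the depth and the number of cells. Because all cells were pooled, a different number of cells of a type and a different level per cell cannot be told apart. The rod arrestin gene Sag stood above 0 in 98.7% of WT and 98.8% of KO cells in the authors' deposited table. The lens crystallin gene Crybb2 did so in 88.1% of WT and 99.3% of KO cells there. Such shares therefore give no check of the tissue. Abca1 itself was called higher in KO (log difference 0.0294, adjusted p = 4.49e-05, the authors' deposited table), so it gives no check of the genotype labels.

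Promoter windows from RefSeq (GRCm38.p6), 250 bases before to 50 bases after a start site, were available for 3 of the 6 genes. All 6 genes were called in the same direction, so that direction does not set these 3 apart. The windows are shown because they were available. Each is written 5′ to 3′ on the strand of its gene, with capitals for matches to a searched motif. The Insig1 window lies on the plus strand at chr5:28071162-28071461, the Apoe window on the minus strand at chr7:19699139-19699438 and the Lrp1 window on the minus strand at chr10:127621099-127621398. Apoe had 3 windows, of which the one at the start of the annotated gene is shown.
Insig1: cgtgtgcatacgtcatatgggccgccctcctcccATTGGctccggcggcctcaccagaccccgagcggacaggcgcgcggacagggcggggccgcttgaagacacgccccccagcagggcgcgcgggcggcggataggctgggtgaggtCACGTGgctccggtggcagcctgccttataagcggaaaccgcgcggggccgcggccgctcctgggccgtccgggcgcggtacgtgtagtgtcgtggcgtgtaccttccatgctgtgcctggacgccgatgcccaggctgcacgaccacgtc
Apoe: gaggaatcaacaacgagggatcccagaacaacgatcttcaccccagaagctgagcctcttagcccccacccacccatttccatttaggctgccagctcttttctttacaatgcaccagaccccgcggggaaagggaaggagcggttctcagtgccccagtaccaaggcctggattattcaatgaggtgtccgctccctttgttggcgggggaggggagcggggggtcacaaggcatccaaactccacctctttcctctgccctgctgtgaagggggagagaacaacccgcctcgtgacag
Lrp1: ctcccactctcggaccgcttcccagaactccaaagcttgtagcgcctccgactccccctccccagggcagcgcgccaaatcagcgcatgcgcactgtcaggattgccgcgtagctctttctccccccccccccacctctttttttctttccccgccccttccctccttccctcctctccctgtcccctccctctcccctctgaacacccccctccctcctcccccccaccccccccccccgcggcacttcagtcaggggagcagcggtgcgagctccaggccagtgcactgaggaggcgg

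Both strands were searched for the E-box CACGTG, the sterol regulatory core TCACNCCAC, the CCAAT box CCAAT and the liver X receptor repeat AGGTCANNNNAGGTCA. The Insig1 window held 1 E-box, which begins 101 bases before the start site, and 1 CCAAT box read on the opposite strand as ATTGG, which begins 216 bases before it. The Lrp1 window and all 3 Apoe windows held 0 matches, which says only that these letters are not in these windows. Of 32851 mouse promoter windows, 7.15% held the E-box, 37.4% the CCAAT box, 1.24% the sterol regulatory core and 0.0152% the repeat. The Insig1 window was 71.7% G or C with 38 CpG pairs, the Lrp1 window 67.7% with 16 and the Apoe window 57.7% with 10. The median window held 52.7% G or C and 7 CpG pairs.

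All 6 genes were called higher in KO in the authors' deposited table, and 0 were called lower. The table as a whole leans the same way, since 93.2% of its genes were called, 69.1% as higher and 24.1% as lower in KO. No listed gene had an authors' raw p above 0.00938, so a gene that is listed at all is likely to be called. Read against the median listed gene instead of 0, 827 called genes lay above and 853 below, and all 6 lay above. Their log differences in the authors' deposited table ran from 0.0503 to 0.240 with a median of 0.0684, against a median of 0.0100 and an upper quartile of 0.0289 over all listed genes. The smallest of them, Clu, lay above 89.7% of all listed genes, and the largest, Fabp5, above 99.6%. The genes were chosen with earlier results of these data known, so this standing is a description.

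**Figure D1:**
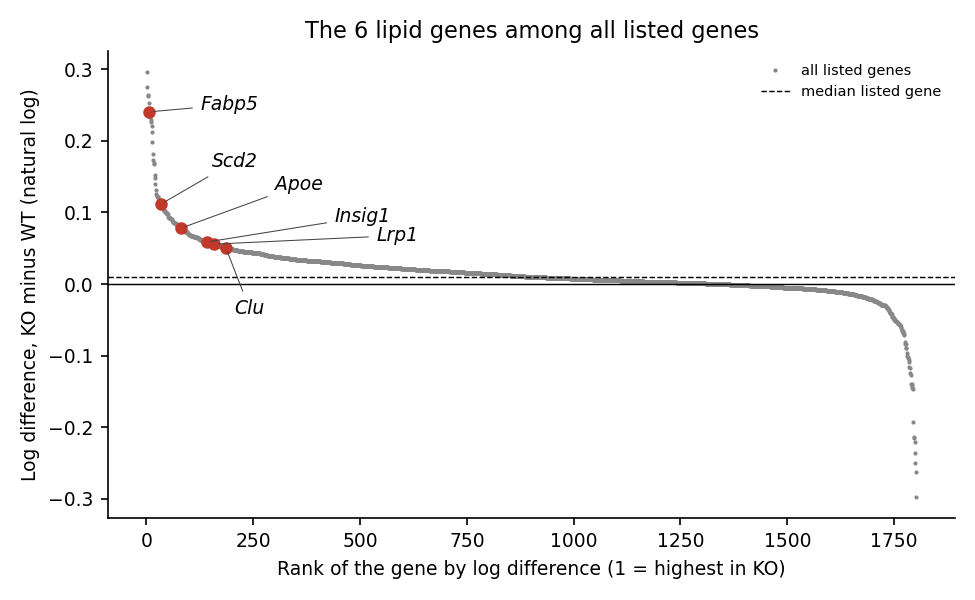
Log difference (KO minus WT, natural log) of each of the 1802 listed genes, ordered from the highest in KO at rank 1, with the 6 lipid genes as red points and the median listed gene as a dashed line. The 6 genes sit between rank 7 (Fabp5) and rank 186 (Clu), all above the median of 0.0100.

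Apoe encodes apolipoprotein E, the main lipid-carrying apolipoprotein of neural tissue. The gene is protein-coding and covers 3080 bases of chromosome 7 on the minus strand (GRCm38, 19696109 to 19699188). Apoe stood above 0 in 60.5% of WT cells and 77.9% of KO cells according to the authors' deposited table. That gain of 17.4 percentage points was below the median gain of 20.8 over all listed genes. In size, its log difference of 0.0783 ranked at 82 of 1802 (adjusted p = 3.30e-26, the authors' deposited table). Apoe was therefore high among listed genes by log difference and below the middle by its gain in share.

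Clu encodes clusterin, also called apolipoprotein J, a secreted chaperone that binds lipid. It spans 13065 bases of the plus strand of chromosome 14, from 65968483 to 65981547. In shares, Clu was close to Apoe, with 62.9% of WT and 78.4% of KO cells above 0 in the authors' deposited table, a gain of 15.5 points. Its log difference was the smallest of the 6 at 0.0503, and its adjusted p of 0.00135 in the authors' deposited table was the largest of the 6. By order of p, Clu stood at 1625 of 1802, so most listed genes had a smaller p.

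The other genes of lipoprotein assembly and lipid export went both ways. Of 17 looked for, 4 were listed in the authors' deposited table, with 1 called higher and 3 lower and a median of -0.00555. Abca1 was higher, whereas the transporter gene Abcg1 (-0.00286), the phospholipid transfer protein gene Pltp (-0.00824) and the HDL receptor gene Scarb1 (-0.0204) were called lower in the authors' deposited table. For Pltp the KO share of cells was the larger one, 69.9% against 46.6% in the authors' deposited table, although its log difference was below 0. The genes next to Apoe on chromosome 7 include Apoc1, 3449 bases away, and Apoc4 and Apoc2, and none of these 3 was listed.

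Lrp1 encodes a large endocytic receptor of the LDL receptor family that takes up lipoproteins carrying apolipoprotein E. It spans 82988 bases of the minus strand of chromosome 10, from 127538161 to 127621148. Lrp1 had the lowest WT share of the 6 genes, 38.2%, against 62.2% in KO in the authors' deposited table. The gain of 24 points exceeded the median gain. With a log difference of 0.0557, at rank 159, Lrp1 was close in size to Clu, yet its adjusted p in the authors' deposited table was 6.98e-122.

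Lrp1 was the only called receptor gene that was higher in KO among the receptors and partners looked for. Of 19 such genes, 4 were listed in the authors' deposited table, with 1 called higher, 2 called lower and 1 not called. Vldlr, the very low density lipoprotein receptor gene, stood at -0.0157, and Lsr, a lipoprotein receptor gene also known from cell junctions, at -0.000556 in the authors' deposited table. Lrp2, which encodes megalin, was listed at 0.0142 with an adjusted p of 1 in the authors' deposited table. The median of the 4 was 0.00681, and without Lrp1 the median of the other 3 was -0.000556. Both lay below the 0.0100 of all listed genes.

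Scd2 encodes a stearoyl-CoA desaturase, the form that predominates in brain and makes monounsaturated from saturated fatty acids. It spans 13191 bases of the plus strand of chromosome 19, from 44293674 to 44306864. Its log difference of 0.112 was the second largest of the 6 and ranked at 34 (adjusted p = 3.23e-32, the authors' deposited table). Its share of cells moved least, from 50.6% in WT to 60.4% in KO in the authors' deposited table. That gain of 9.8 points ranked at 1576 of 1802. Scd2 was thus near the top of the list by log difference and near the bottom by share.

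The paralogs Scd1, Scd3 and Scd4 were not listed. A stretch of 623 bases of the longest Scd2 transcript matched a Scd1 transcript at 95.5% identity. It was the longest match to Scd1, the only one kept, and ended 3738 bases from the 3′ end of the Scd2 transcript. Its place in the Scd1 transcript was not measured, and whether reads were shared was not tested. Other genes of fatty acid synthesis lay nearer 0. Of 25 looked for, 8 were listed in the authors' deposited table, with 4 called higher and 4 lower and a median of 0.00197. Against the median listed gene, 2 lay above and 6 below. Acly, which supplies cytosolic acetyl-CoA, reached 0.0324 and the acyl-CoA synthetase gene Acsl6 reached 0.0359 in the authors' deposited table. Acsl3 (0.00850) and the desaturase family gene Fads3 (0.00625) had higher calls in the authors' deposited table but lay below the median listed gene. Called lower were the elongase genes Elovl2 (-0.00231) and Elovl4 (-0.00357), the malic enzyme gene Me1 (-0.00603) and the lipogenic gene Thrsp (-0.00939) in the authors' deposited table.

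Insig1 encodes an endoplasmic reticulum protein that holds back SREBP when sterols are plentiful, and the gene is itself a known SREBP target. It spans 7300 bases of the plus strand of chromosome 5, from 28071363 to 28078662. Values above 0 were listed in 41.3% of WT and 66.1% of KO cells for Insig1 in the authors' deposited table. The gain of 24.8 points was the largest of the 6. Its log difference of 0.0586 ranked at 141 (adjusted p = 3.00e-125, the authors' deposited table).

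Few other genes of sterol sensing and cholesterol synthesis were listed. Of 35 looked for, 2 were in the authors' deposited table, each with a higher call, as had 69.1% of all listed genes. Both lay above the median listed gene, but 2 genes are too few to read as a group. The other 33 were not listed, which does not show that they were unchanged. Scap, whose product escorts SREBP and binds INSIG, had a log difference of 0.0393 and a share that went from 43.5% in WT to 71.4% in KO in the authors' deposited table. Npc1, which passes cholesterol out of lysosomes, had a log difference of 0.0174 and went from 35.9% to 67.8% in the authors' deposited table. The gain of Npc1, 31.9 points, was the largest of the 33 listed lipid genes. None of the enzymes of cholesterol synthesis looked for was listed.

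Fabp5 encodes a cytosolic fatty acid binding protein that carries fatty acids inside the cell. It spans 4060 bases of the plus strand of chromosome 3, from 10012548 to 10016607. Its log difference of 0.240 ranked at 7 of 1802 in the authors' deposited table, 2.15 times that of Scd2. Shares of cells above 0 went from 62.8% in WT to 85.7% in KO in the authors' deposited table. That gain of 22.9 points compares with a median gain of 20.8. As log odds of the share, the gain was 1.27, at rank 114 of 1802, against a median of 0.874. The adjusted p was listed as 0 in the authors' deposited table, as the raw p was for 183 genes. Transcripts of 5 processed pseudogenes matched 336 to 409 bases of the 987-base Fabp5 transcript at 93.6% to 98.3% identity. These stretches ended at least 487 bases from the 3′ end. Only the longest match to each pseudogene was kept, so a shorter one nearer that end would not be seen. The sources used here do not say how reads shared with such copies were counted.

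The other lipid carrier genes lay below Fabp5 in log difference. Most act inside the cell, but Rbp3, Rbp4 and Ttr, counted with them, encode secreted carriers. Of 25 looked for, 10 were listed in the authors' deposited table, with 7 called higher and 3 lower and a median of 0.0141. The share called higher, 70.0%, was close to the 69.1% of all listed genes. Against the median listed gene, 5 lay above and 5 below. The fatty acid binding genes Fabp7 (0.0233), known from glia, and Fabp3 (0.0186) lay far below Fabp5 in the authors' deposited table. The log difference of Fabp5 was 10.3 times that of Fabp7. Dbi, which encodes an acyl-CoA binding protein, came next to Fabp5 with 0.103 at rank 40 in the authors' deposited table. The retinoic acid binding gene Crabp1 (0.0229) also had a higher call in the authors' deposited table. So did the lipid droplet gene Plin2 (0.00951) and the thyroxine and retinol carrier gene Ttr (0.00162) in the authors' deposited table, both below the median listed gene. Rbp3 (-0.109), whose product carries retinoids between photoreceptors and pigment epithelium, Rbp4 (-0.00399) and Plin3 (-0.000873) were called lower in the authors' deposited table.

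**Figure D2:**
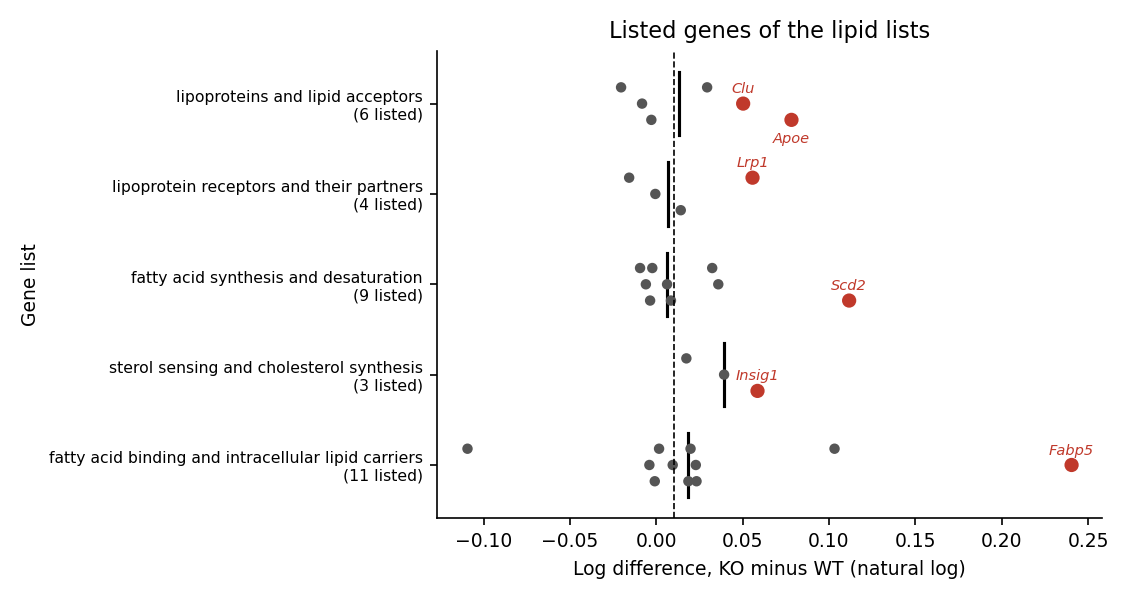
Log difference (KO minus WT, natural log) of every listed gene of 5 lipid lists, with the 6 genes in red, a short black line at the median of each list and a dashed line at the median of all listed genes. The red points are the highest of their lists, apart from Clu, which lies below Apoe, while the other genes gather around 0 except Dbi (0.103) and Rbp3 (-0.109).

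Over the 5 lipid lists, 33 of 126 genes were listed in the authors' deposited table, 20 called higher and 12 lower, or 60.6% higher against 69.1% of all listed genes. Against the median listed gene, 16 called lipid genes lay above and 16 below. Without the 6 genes, 14 of the 27 others were called higher and 12 lower, and their median log difference was 0.00625. The median of these others was below that of all listed genes. Shares of cells above 0 were larger in KO for all 33 listed lipid genes, by 8.2 to 31.9 points in the authors' deposited table. This held for 1764 of all 1802 genes.

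The 6 genes were also ordered by their share of WT cells above 0. Clu (62.9%), Fabp5 (62.8%) and Apoe (60.5%) were nearly level in the authors' deposited table, followed by Scd2 (50.6%), Insig1 (41.3%) and Lrp1 (38.2%). The median listed gene stood at 40.4% in WT and 62.7% in KO in the authors' deposited table. In KO the order became Fabp5, Clu, Apoe, Insig1, Lrp1 and Scd2, so Scd2 stood in the last place instead of the fourth. With no values per library, it could not be tested whether neighbours in these orders differ.

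**Figure D3:**
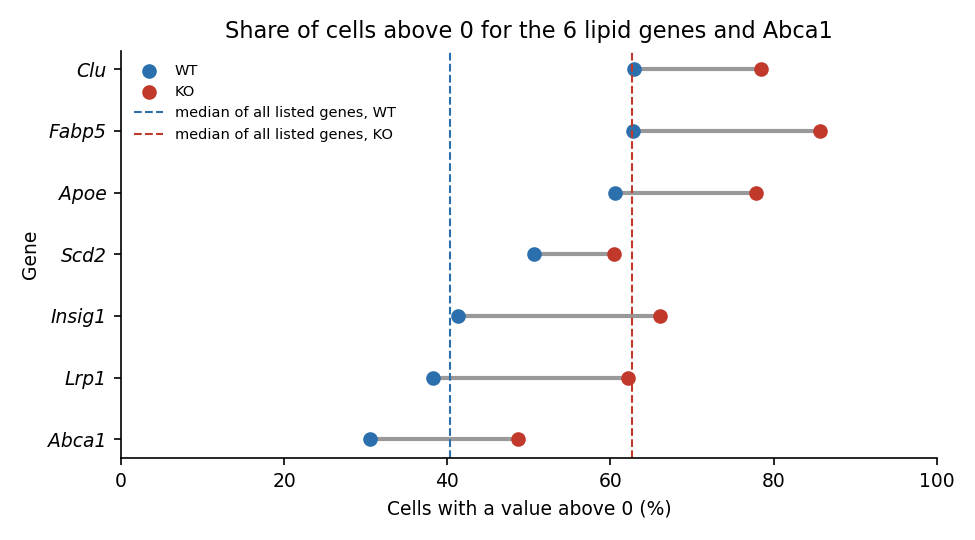
Percentage of cells with a value above 0 in WT (blue) and KO (red) for the 6 lipid genes and Abca1, with dashed lines at the median of all listed genes in each genotype. Every gene moves to the right in KO, and Scd2 has the shortest line, 9.8 points.

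Log difference and share of cells ordered the 6 genes differently. By log difference the order was Fabp5, Scd2, Apoe, Insig1, Lrp1 and Clu, and by gain in share it was Insig1, Lrp1, Fabp5, Apoe, Clu and Scd2. Insig1, Lrp1 and Fabp5 gained more than the median listed gene, by 4, 3.2 and 2.1 points. Apoe, Clu and Scd2 gained less than the median listed gene, with differences from its gain of -3.4, -5.3 and -11 points. The median gain of the 6 was 20.2 points, close to the 20.8 of all listed genes, so as a group they did not stand apart in share.

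**Figure D4:**
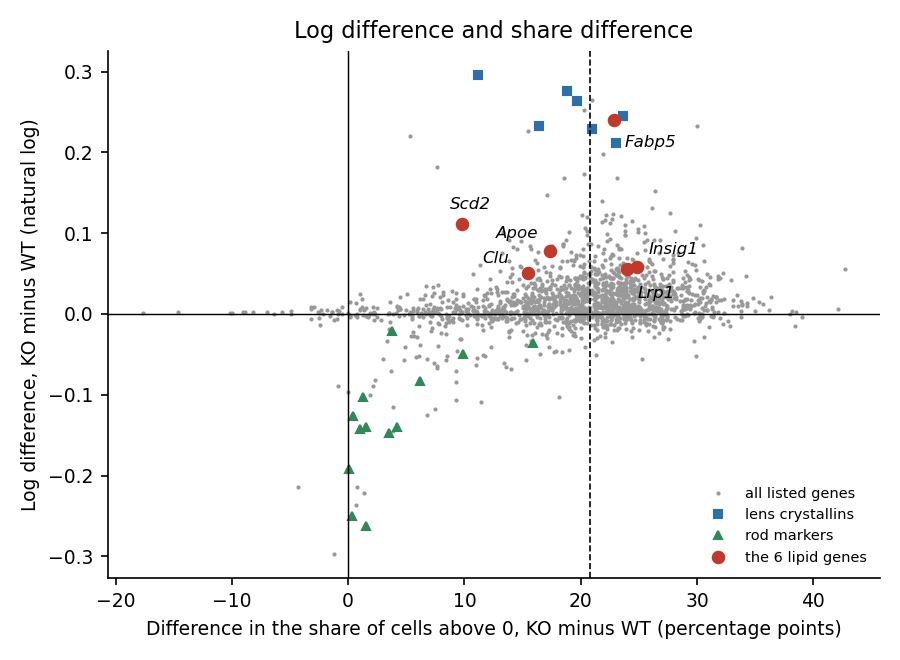
Log difference against the difference in the share of cells above 0 (KO minus WT, percentage points) for all 1802 listed genes (grey), with the 6 lipid genes as red circles, lens crystallins as blue squares and rod markers as green triangles. Fabp5 (22.9 points, 0.240) lies among the crystallins, and Scd2 (9.8 points, 0.112) lies to the left of most genes of its height.

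Likeness was measured as the distance over the log difference and both shares, each divided by its SD over all listed genes, with 3 nearest genes named per gene. This rests on 3 values of 1 comparison, not on a pattern over samples. The nearest genes of Fabp5 were the lens crystallins Cryba4 (distance 0.237), Crybb3 (0.308) and Crybb1 (0.713). These crystallins stood at 0.245, 0.229 and 0.212 in log difference in the authors' deposited table. Apoe lay nearest to Tuba1a (0.167), Eef1b2 (0.238) and Mrpl9 (0.307), and Clu to Gnas (0.182), Gnb5 (0.310) and Rpl17 (0.395). Insig1 lay nearest to Zfhx4 (0.0926), Slit2 (0.133) and Mef2a (0.203), and Lrp1 to Mtcl1 (0.0526), Cltb (0.156) and Ndnf (0.161). Scd2 had no close match, its nearest genes being Alad (0.529), Nktr (0.608) and App (0.623).

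Marker genes of cell types that could hold these transcripts were read beside them. Of 17 lens genes looked for, 7 were listed in the authors' deposited table, all between 0.212 and 0.296, with 6 called higher and Crybb2 (0.296, adjusted p of 0.308) not called. Shares of cells above 0 for these lens genes ran from 62.5% to 88.1% in WT and from 83.5% to 99.3% in KO in the authors' deposited table. All 7 listed lens genes were beta or gamma crystallin genes. The 10 not listed include the alpha crystallin genes Cryaa and Cryab and every gene of the lens list that is not a crystallin gene. Lens genes thus moved with Fabp5, and their part in its difference was not tested. Apoe and Clu are themselves on the list of markers of Müller glia, the radial glia that span the retina. Of 21 such markers, 17 were listed in the authors' deposited table, Apoe and Clu included. Counting both, 12 were called higher and 5 lower, with a median of 0.00721 and a lowest value of -0.0288. Against the median listed gene, 8 lay above and 9 below. Dbi (0.103), Vim (0.0801), Apoe (0.0783) and Dkk3 (0.0650) were the highest of them in the authors' deposited table, while the median marker was below that of all listed genes.

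Astrocyte markers had 5 higher calls and 1 lower among 6 listed of 13 in the authors' deposited table, with a median of 0.0114. The highest, Gja1, stood at 0.0444 in the authors' deposited table, below each of the 6 lipid genes. Microglia and macrophage markers, which mark other known sources of Apoe, had 7 higher and 4 lower calls among 11 listed of 17 and a median of 0.00630 in the authors' deposited table. Pigment epithelium markers had 4 higher and 2 lower calls among 6 listed of 12 in the authors' deposited table, with a median of 0.00204. Endothelial and pericyte markers had 4 calls in each direction among 9 listed of 14, with a median of -0.00781 in the authors' deposited table. Among rod markers, 13 of 16 were listed and 12 were called lower in the authors' deposited table, with a median of -0.140, and Rbp3, a photoreceptor product, was lower beside them. Against the median listed gene, the calls above and below were 4 and 2 for astrocytes, 4 and 7 for microglia, 2 and 4 for pigment epithelium and 3 and 5 for vessels. The part of any of these cell types in the values of the 6 genes was not tested.

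**Figure D5:**
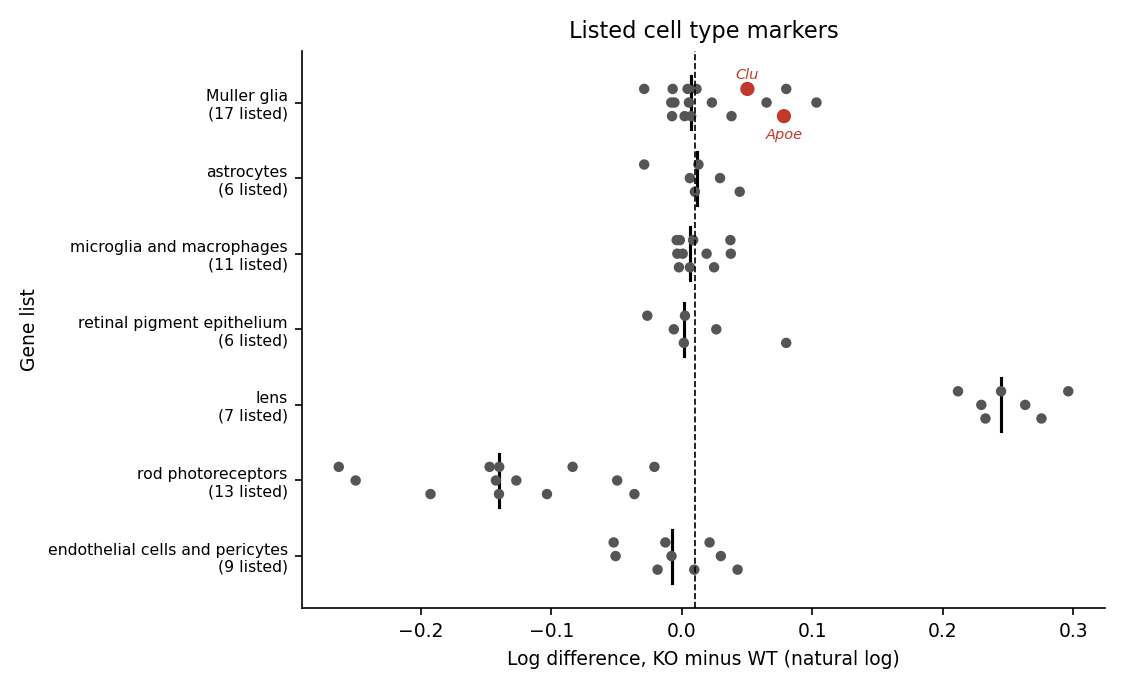
Log difference (KO minus WT, natural log) of every listed marker of 7 cell types, with Apoe and Clu in red, a short black line at each list's median and a dashed line at the median of all listed genes. Lens markers lie between 0.212 and 0.296 and rod markers below 0, and the glial lists lie around the median of all genes.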

How the data were processed

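Single-cell libraries of mouse retina were analysed through 1 table of the authors' own comparison of KO with WT cells. Cell Ranger, Seurat 3.1.4, DESeq2 and the build GRCm38 are named, per the submitters' processing notes; they do not give the test, cell filters, doublet treatment or integration. The log difference is taken as a natural log (ln) after the convention of that Seurat version, since no base stands in the header of the deposited table. Shares of cells are fractions as deposited by the authors and are given as percent. The raw and adjusted p-values are those the authors deposited. Their quotient gave 2000 features, and the largest raw p was 0.00938, so an unlisted gene was left out or not tested. Whether the p-values treat cells or libraries as replicates is not stated. A raw p listed as 0 for 183 genes, with only 3 WT and 5 KO libraries, points to cells as the replicates. Read so, the p-values leave out the spread between libraries, and a call says nothing about that spread. The cluster column reads KO, so KO was taken as the first group.

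Counts, medians, ranks and distances were computed with Python 3.11.15 and pandas 2.3.3. The counts of calls, a rank and the choice of a nearest gene were tested on simulated data, while medians and distance values were not. The 6 genes and the gene lists (5 of lipid genes, 7 of cell type markers) were chosen with earlier results of these data known. Named were the 6 genes, Abca1, the listed lipid genes, the 3 nearest genes of each of the 6, and up to 4 markers per list by absolute log difference; Cryaa, Cryab and Crybb2 were added once their values had been seen. Some genes that this rule selects are counted in their lists but not named. The planned fits to values per library were not run, since 0 columns hold such values. GENCODE's GRCm38 annotation gave the positions, and BLAST 2.17.0 found similar transcripts, at a minimum of 90% identity over 200 bases.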

Additional observations from a re-analysis of the deposited data

How the results depend on the processing

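All 6 genes kept their direction relative to the median listed gene. Their log ratios of shares of cells above 0 were also above 0, as for 1764 of 1802 genes, but only 2 of the 6 (Lrp1 and Insig1) exceeded the median gene's ratio of 0.417. Their median log difference was 0.0684, and it was 0.0584 relative to the median listed gene and 0.0586 without Fabp5, an alternative chosen after seeing the data. On the scale of the log ratio of shares it was 0.282. With an adjusted p under 1e-10, 5 genes were called higher (all but Clu), against 60.7% of all listed genes, and under 1e-50, 3 were (Fabp5, Insig1 and Lrp1), against 40.1%. The median gain in share was 20.2 points, or 0.906 in log odds, against 20.8 points and 0.874 over all listed genes. It became -0.65 points relative to the median listed gene, with -3.4 for Apoe, -5.3 for Clu and -11 for Scd2, because nearly all genes gained. Relative to the median listed gene, 16 lipid genes were called higher and 16 lower, against 20 and 12 as deposited. A minimum share of 25% in either group left the counts at an adjusted p under 0.05 as they were, since every listed lipid gene passed it. No paired analysis was possible because the table gives no value per library, and for the same reason no library could be left out. Depth is unknown, so it could not be said what differences these data could detect.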

Other observations

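The size of a log difference and the p beside it were loosely tied among lipid genes. A raw p of 0 was listed for 4 of the 33 lipid genes in the authors' deposited table, namely Fabp5, Pltp, Thrsp and Plin2. These 4 stood at 0.240, -0.00824, -0.00939 and 0.00951 in log difference in the authors' deposited table. At a log difference of 0.0503, Clu had a larger adjusted p than any of these, 0.00135 in the authors' deposited table. Pltp and Thrsp were called lower while their shares of cells above 0 went up by 23.3 and 26.9 points in the authors' deposited table.

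The chromosome neighbours of the 6 genes were looked up among the 1802 listed genes. Of 20 protein-coding genes within 50 kb of any of the 6, 1 was listed, Ndufa4l2 beside Lrp1, at -0.00425 in the authors' deposited table. The share of all protein-coding genes that were listed was not computed, so this count is no result about these neighbourhoods.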
